A study of Mus musculus with 58 samples.

Results

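Btg1, Btg2, Tob1, Tob2, Cdkn1a, Cdkn1b, Cdkn1c, Cdkn2b and Trp53inp1 were followed as 9 genes that restrain the cell cycle. They were taken by gene symbol from the bulk count tables, where they are 9 of 20095 rows. Each was found once, and all 9 passed the filter on low counts in the 6 h, the 96 h and the sorted set of libraries. The libraries come from mouse small-intestinal organoids of strain Bl/6, which are epithelial cultures with crypt-like buds, and were made by CEL-seq, a method that counts the 3' ends of transcripts. Whole organoids had been kept for 6 h or 96 h under 1 of 6 conditions, with 3 libraries for each condition and time. Ei is EGFR inhibition and Mi is Mek inhibition in the standard medium ENR, which supplies EGF, Noggin and R-spondin. ID is combined inhibition of Wnt and Notch, IDE adds EGFR inhibition to ID, and IDM adds Mek inhibition to ID. ENR alone is the control. A further set holds sorted cells in Ei and in ENR, 2 libraries each. They are Dclk1+ cells from Dclk1-GFP organoids, and Lgr5+ cells from Lgr5-DTR and from Lgr5-GFP organoids. Beside them are 2 libraries titled control organoids, taken here as whole organoids in ENR. Which compounds were used, and how long the sorted organoids had been inhibited, is not given in the sources used here.

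Progression from G1 to S phase is driven by D-type cyclins with Cdk4 or Cdk6 and by cyclin E with Cdk2, and growth factors such as EGF keep these kinases active through the Ras-Raf-Mek-Erk cascade. Cdkn1a (p21), Cdkn1b (p27) and Cdkn1c (p57) are Cip/Kip proteins that bind cyclin-Cdk complexes, while Cdkn2b (p15) is an INK4 protein that binds Cdk4 and Cdk6 themselves. Btg1, Btg2, Tob1 and Tob2 belong to the BTG/TOB family of antiproliferative proteins, which bind the CCR4-NOT deadenylase complex and promote shortening of poly(A) tails. Trp53inp1 is a stress protein induced by p53 that also takes part in autophagy, and Cdkn1a and Btg2 are likewise known p53 targets. In the intestine, crypt stem and progenitor cells divide rapidly, and Cdk inhibitors accumulate as cells leave the cycle and differentiate.

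Total counts were 448292 to 2763423 per library at 6 h, 158135 to 1738425 at 96 h and 668893 to 3599554 in the sorted set. Levels below are CPM, counts per 1000000 counts of the library size after TMM scaling, given for replicates 1, 2 and 3 in that order. No source says that the libraries of a group came from separate cultures, so p-values measure the spread between these libraries, which may be technical. The ENR, Ei and Mi libraries and the ID, IDE and IDM libraries carry different set numbers at each time, so Wnt and Notch inhibition and library set cannot be told apart, and neither can time and set. In the sorted set the whole-organoid libraries list 15983 rows and the sorted libraries 15746. Sorting and the separate count lists therefore cannot be told apart where sorted cells are set against whole organoids. In bulk libraries fewer cells of a type and less RNA per cell cannot be told apart. The sort on Dclk1 is visible in the counts, with 663 to 911 CPM of Dclk1 in the 4 Dclk1+ libraries against 2.70 to 4.85 CPM in the whole organoids of that set. Lgr5 itself does not show its sort, at 32.6 to 58.3 CPM in the 4 Lgr5+ ENR libraries, against 40.7 to 48.5 CPM in whole organoids and 13.6 to 125 CPM in the Dclk1+ libraries. The 11 stem cell markers together do, at 982 to 1435 CPM in the Lgr5+ ENR libraries, against 638 to 653 CPM in whole organoids. They summed to 477 to 604 CPM in the Dclk1+ ENR libraries and 852 to 904 CPM in the Dclk1+ Ei libraries. Such a sum can be led by its most abundant genes. Ptma took 12.2% to 22.3% of all counts in the 8 Lgr5+ libraries, against 1.52% to 3.40% in the 4 Dclk1+ libraries and 0.396% to 4.04% in the 38 whole-organoid libraries.

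The members lie on separate stretches of the genome, in mm10 with the GENCODE M21 annotation. Btg1 is at chr10:96617006-96622809 (+), Btg2 at chr1:134075170-134079120 (-), Tob1 at chr11:94211454-94215495 (+) and Tob2 at chr15:81848272-81858796 (-). Cdkn1a is at chr17:29090976-29100727 (+), Cdkn1b at chr6:134920401-134925513 (+) and Cdkn1c at chr7:143458339-143461050 (-). Cdkn2b and Trp53inp1 are both on chromosome 4, at chr4:89306299-89311039 (-) and chr4:11156431-11174379 (+). The 250 bases before the RefSeq start on GRCm38.p6 were found for 7 members, of which Cdkn1a has 2 such windows, and those of Cdkn1c and Trp53inp1 are not shown. Windows are printed for Btg1, Btg2 and Cdkn1b, which rose together after 6 h of inhibition, and for Cdkn2b, which moved apart from them at 96 h. They are read 5' to 3' on the gene's strand from chr10:96616751-96617000 (+), chr1:134079156-134079405 (-), chr6:134920151-134920400 (+) and chr4:89311033-89311282 (-). Capitals mark the forkhead heptamer GTAAACA on either strand and the cyclic AMP response element TGACGTCA.

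Btg1: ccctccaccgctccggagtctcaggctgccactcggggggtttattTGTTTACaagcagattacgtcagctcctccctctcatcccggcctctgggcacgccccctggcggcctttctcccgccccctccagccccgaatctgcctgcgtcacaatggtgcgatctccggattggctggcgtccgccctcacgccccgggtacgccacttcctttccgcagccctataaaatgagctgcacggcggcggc
Btg2: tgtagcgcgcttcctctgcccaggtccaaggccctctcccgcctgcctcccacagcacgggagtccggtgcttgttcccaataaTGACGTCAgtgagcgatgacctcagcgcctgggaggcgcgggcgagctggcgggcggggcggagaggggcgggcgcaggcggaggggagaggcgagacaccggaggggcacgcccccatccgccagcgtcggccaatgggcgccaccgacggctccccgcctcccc
Cdkn1b: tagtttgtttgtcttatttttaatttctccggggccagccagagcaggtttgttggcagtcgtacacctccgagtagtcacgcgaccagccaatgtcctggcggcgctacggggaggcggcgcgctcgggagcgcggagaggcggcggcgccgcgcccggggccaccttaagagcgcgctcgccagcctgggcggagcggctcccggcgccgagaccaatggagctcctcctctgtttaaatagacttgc
Cdkn2b: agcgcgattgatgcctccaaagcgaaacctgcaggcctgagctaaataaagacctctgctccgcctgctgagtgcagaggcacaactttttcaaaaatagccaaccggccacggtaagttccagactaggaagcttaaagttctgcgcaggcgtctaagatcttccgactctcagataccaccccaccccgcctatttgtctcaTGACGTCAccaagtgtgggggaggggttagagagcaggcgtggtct

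Of the 8 member windows, the Btg1 window held the forkhead heptamer, 204 bases before the start and on the reverse strand (TGTTTAC), and none of the other 7 did. Over all 32851 RefSeq windows of the same length, searched on both strands, 3.17% held it. The Btg2 and Cdkn2b windows held TGACGTCA, 166 and 46 bases before the start, a sequence present in 1.55% of all windows. The pentamer CCAAT occurred in the windows of Btg1, Btg2, Cdkn1b and Tob1, that is 4 of 8 against 33.8% of all windows, and CACGTG in 0 of 8 against 6.02%. No 2 of these motifs overlapped in the printed windows. The matches describe letters in a window and were not tested as binding sites.

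EGFR or Mek inhibition for 6 h moved the same 5 members in the same directions, with or without Wnt and Notch inhibition. Btg2, Btg1, Trp53inp1 and Cdkn1b rose and Cdkn1a fell in each of the 4 comparisons, by edgeR's quasi-likelihood test with Benjamini-Hochberg adjustment over all 9380 genes tested, the test behind every adjusted p at 6 h. These 5 of 9 members stand beside 28.1% of all genes called in Ei against ENR, 23.1% in Mi against ENR, 22.5% in IDE against ID and 20.7% in IDM against ID. Ei and Mi share the ENR libraries and IDE and IDM share the ID libraries, so within each medium the comparisons are not independent.

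Btg2, an immediate early gene as well as a p53 target, had 167, 194 and 194 CPM in Ei and 179, 158 and 133 CPM in Mi, against 44.0, 42.8 and 44.4 CPM in ENR. All inhibited libraries lay well above all ENR libraries, whose own spread was small. The change was 2.08 ± 0.16 (log2 ± SE, as in the following; adjusted p = 2.41e-12) in Ei and 1.84 ± 0.16 (adjusted p = 9.64e-11) in Mi. Under Wnt and Notch inhibition, Btg2 had 178, 173 and 182 CPM in IDE and 178, 143 and 166 CPM in IDM, against 53.7, 73.01 and 62.1 CPM in ID. Again no library of an inhibited group reached down to the uninhibited ones, with changes of 1.45 ± 0.15 (adjusted p = 5.91e-09) and 1.32 ± 0.16 (adjusted p = 6.38e-08).

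Its paralogue Btg1 had 155, 209 and 162 CPM in Ei and 187, 146 and 170.3 CPM in Mi, against 89.7, 60.2 and 74.3 CPM in ENR. In the other medium it had 162, 168 and 162 CPM in IDE and 198, 124 and 147 CPM in IDM, against 87.2, 101 and 88.7 CPM in ID. The 12 inhibited libraries were all above the 6 uninhibited ones. Btg1 rose 2.24-fold in Mi, 1.76-fold in IDE and 1.66-fold in IDM (adjusted p = 2.74e-06 in Mi, 0.00039 in IDE and 0.00164 in IDM). In Ei the log2 change of Btg1 was 1.24 ± 0.17 (adjusted p = 7.3e-07).

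The widest change among the members at 6 h was that of Trp53inp1. Trp53inp1 had 26.4, 29.2 and 33.2 CPM in Ei and 19.0, 25.6 and 18.4 CPM in Mi, against 2.45, 3.65 and 4.37 CPM in ENR, where the 3 libraries held 13 counts in all. It had 31.5, 37.2 and 26 CPM in IDE and 23.8, 25.1 and 28.9 CPM in IDM, against 4.47, 2.76 and 5.17 CPM in ID. The inhibited and uninhibited libraries were far apart in both media, at changes of 3.04 ± 0.34 in Ei, 2.55 ± 0.37 in Mi, 2.92 ± 0.34 in IDE and 2.68 ± 0.35 in IDM (adjusted p between 1.64e-08 and 1.78e-06).

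**Figure D1:**
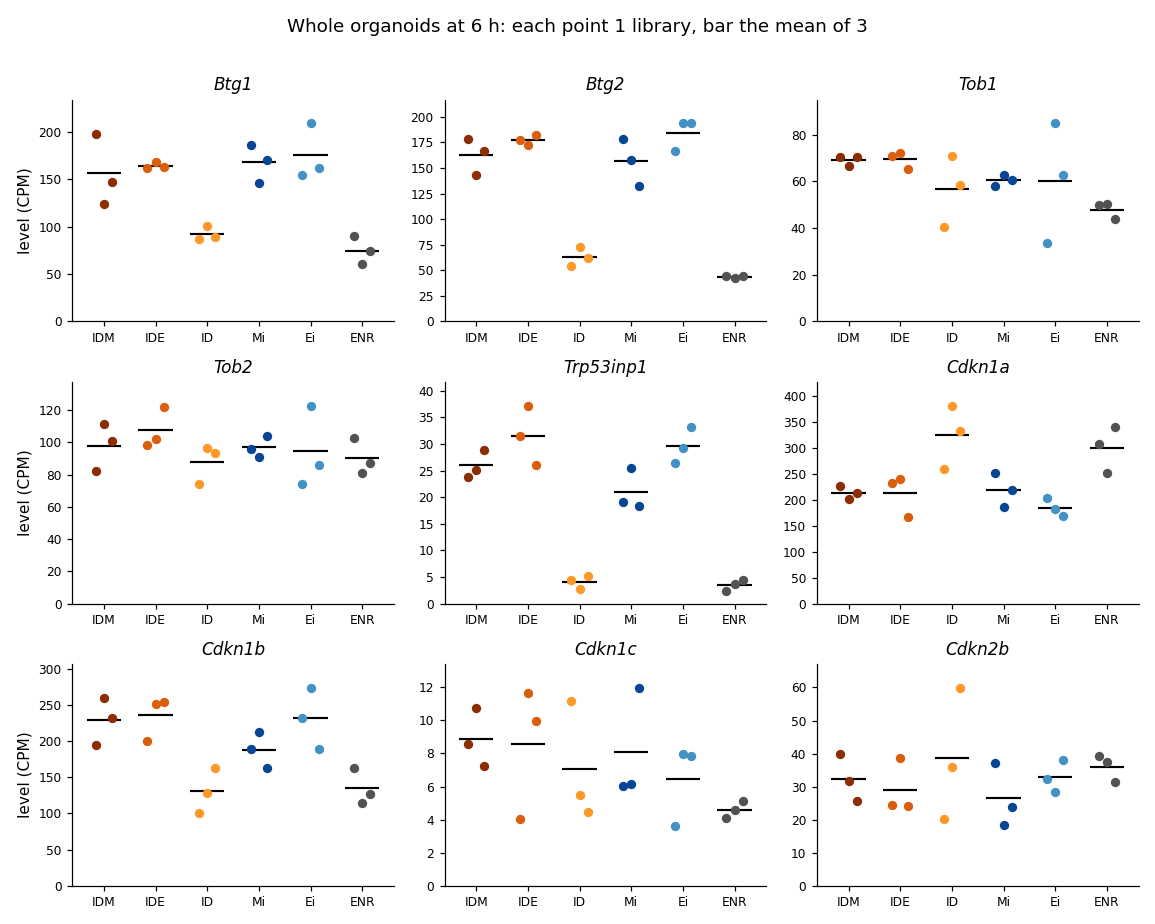
Levels of the 9 members in whole organoids after 6 h, in CPM on the vertical axis of each panel, for the 6 conditions; points are libraries and bars are means of 3. Btg1, Btg2 and Trp53inp1 have all libraries of the 4 groups with an EGFR or Mek inhibitor above those of ID and ENR. The Mi libraries of Tob1 and Cdkn1c lie above those of ENR and the IDE libraries of Tob2 above those of ID, while those of Cdkn2b overlap. None of these differences was called.

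The Cip/Kip members went in opposite directions at 6 h. Cdkn1b had 232, 273 and 189 CPM in Ei and 188, 212 and 162 CPM in Mi, against 162, 115 and 127 CPM in ENR, and 200.1, 252 and 254 CPM in IDE and 194, 259 and 231 CPM in IDM, against 101, 129 and 163 CPM in ID. Only the Mi and ENR libraries met, with the lowest Mi library level with the highest ENR library. The rise was 1.72-fold in Ei (adjusted p = 0.000432), 1.75-fold in IDE (adjusted p = 0.000369), 1.70-fold in IDM (adjusted p = 0.000927) and 1.39-fold in Mi (adjusted p = 0.0362).

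Cdkn1a had 204, 182 and 168 CPM in Ei and 252, 187 and 219 CPM in Mi, against 308, 252 and 341 CPM in ENR, and 233, 241 and 166 CPM in IDE and 227, 201 and 212 CPM in IDM, against 259, 382 and 333 CPM in ID. Every inhibited library lay below every uninhibited one of its medium, except that the highest Mi library was level with the lowest ENR library. The change was -0.71 ± 0.16 in Ei (adjusted p = 0.000683), -0.46 ± 0.15 in Mi (adjusted p = 0.028), -0.65 ± 0.15 in IDE (adjusted p = 0.00179) and -0.63 ± 0.15 in IDM (adjusted p = 0.00272). The 2 Cip/Kip calls in Mi depended on single libraries. That of Cdkn1a was lost without ENR replicate 1 or 3 or Mi replicate 2 or 3 (adjusted p 0.0692 to 0.157), and that of Cdkn1b without ENR replicate 2 or 3 or Mi replicate 1 or 2 (adjusted p 0.0805 to 0.173) and with DESeq2 (adjusted p = 0.0528).

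The other 4 members did not pass the test in any of these 4 comparisons. Cdkn1c was counted at 3.60 to 11.97 CPM over the 18 libraries of 6 h, with log2 changes of 0.55 ± 0.49 in Ei and 0.79 ± 0.48 in Mi. Cdkn2b lay between 18.5 and 59.9 CPM and had changes of -0.13 ± 0.27 in Ei and -0.56 ± 0.26 in IDE (adjusted p = 0.127 in IDE). For Tob1, between 33.6 and 84.9 CPM, the change in Ei was 0.40 ± 0.21 (adjusted p = 0.161), and without Ei replicate 1, the lowest library, it was 0.65 and passed (adjusted p = 0.0129). The changes of Cdkn2b in IDE passed likewise without ID replicate 1 (-0.73, adjusted p = 0.0422) or IDE replicate 2 (-0.81, adjusted p = 0.046). The Mi libraries of Tob1 lay above ENR, at 57.9, 62.6 and 60.8 CPM in Mi, against 49.7, 50.1 and 43.7 CPM in ENR, without passing (adjusted p = 0.26). Those of Cdkn1c did so on 27 counts in Mi and 17 counts in ENR. How many of all genes separate in this way was not counted. Tob2 showed the narrowest changes, from 0.09 ± 0.17 in Ei to 0.27 ± 0.17 in IDE, at 73.8 to 123 CPM.

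No member was called different between EGFR and Mek inhibition at 6 h. In Mi against Ei 0 of 9 members were called, as were 0.0959% of all genes, and 0 members had an unadjusted p under 0.05 in edgeR or were called by DESeq2. The nearest was Trp53inp1, at -0.50 ± 0.25 (unadjusted p = 0.054, 95% interval -0.99 to -0.01), and the interval of Btg2 was -0.52 to 0.03. In IDM against IDE 0 of 9 were called beside 0.0213% of all genes, with 0 at an unadjusted p under 0.05 and 0 by DESeq2. There the interval was -0.40 to 0.14 for Btg2 and -0.68 to 0.20 for Trp53inp1, on the log2 scale.

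Wnt and Notch inhibition by itself called 0 of 9 members at 6 h, beside 0.224% of all genes, and 0 by DESeq2. In edgeR 1 member had an unadjusted p under 0.05, as did 805 of the 9380 genes tested. It was Btg2, at 0.56 ± 0.18 (unadjusted p = 0.00306, adjusted p = 0.273), and its 3 ID libraries were all above its 3 ENR libraries. The response to EGFR inhibition in ID was set against that in ENR, and likewise the response to Mek inhibition. In both, 0 of 9 members were called, as were 0% and 0% of all genes, and DESeq2 called 0 genes, while 540 genes for the EGFR inhibitor and 509 for the Mek inhibitor had an unadjusted p under 0.05 in edgeR. Btg2 was the 1 member among these, with responses that differed by -0.62 ± 0.22 for the EGFR inhibitor (unadjusted p = 0.00847, adjusted p = 0.827) and -0.51 ± 0.23 for the Mek inhibitor (unadjusted p = 0.0293, adjusted p = 0.896), smaller in ID. Its ID level was the higher baseline, and its 4 inhibited groups overlapped.

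**Figure D2:**
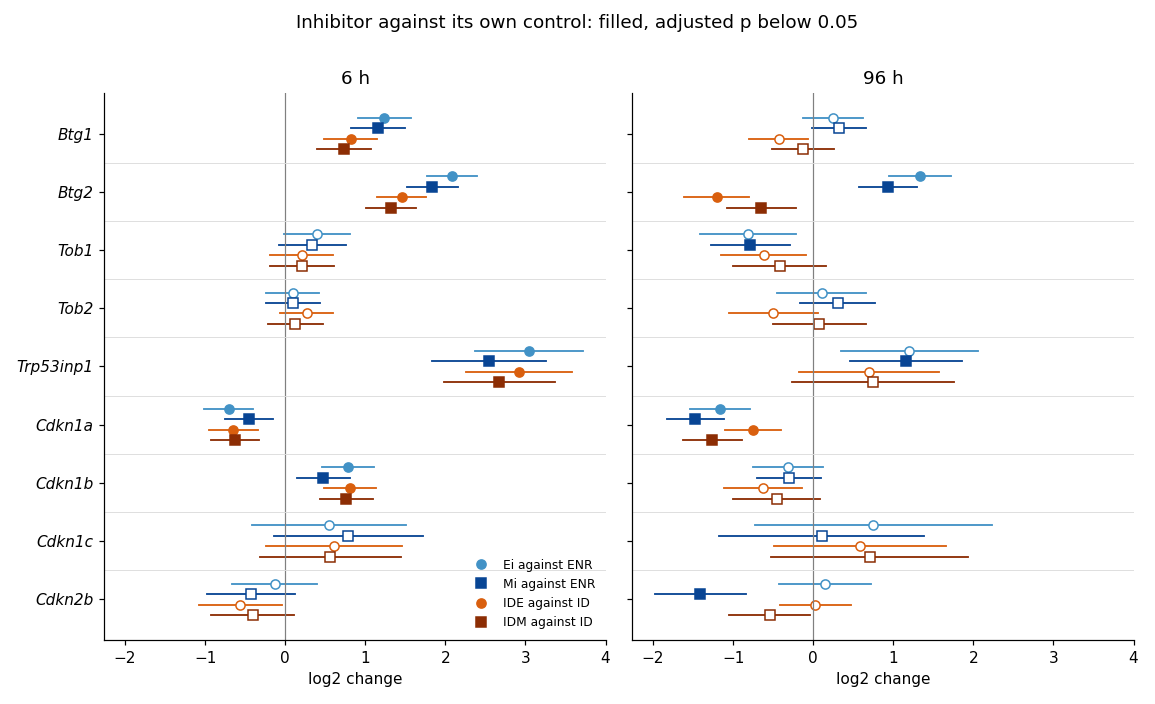
Log2 changes of the 9 members under EGFR inhibition (Ei against ENR, IDE against ID) and Mek inhibition (Mi against ENR, IDM against ID), at 6 h and 96 h; bars are 95% intervals and filled points passed an adjusted p of 0.05. At 6 h the 4 comparisons lie above 0 for Btg1, Btg2, Cdkn1b and Trp53inp1, the last between 2.55 and 3.04, and below 0 for Cdkn1a, and at 96 h those of Btg2 lie on both sides of 0.

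Targets of ERK signalling and cell cycle drivers fell beside these changes. Of 15 ERK target genes, 9 were tested and 8 fell in each of the 4 comparisons. Of 11 cyclins and kinases that bind Cdk inhibitors, 9 were tested and 4 fell in Ei, none rose, and the median change was -0.36, against 0.03 over all genes tested. Ccnd2 averaged 96.98 CPM in Ei and 840.4 CPM in ENR (log2 change -3.12, adjusted p = 1.06e-16), and Ccnd1 averaged 56.9 CPM in Ei and 229 CPM in ENR (-1.995, adjusted p = 2.41e-12). These D-type cyclins are the regulatory subunits that Cdkn2b keeps from Cdk4 and Cdk6. Of the 18 S phase genes, all tested, 15 fell in Ei, 16 in Mi, 15 in IDE and 13 in IDM, and 0 rose in any of the 4. The proliferation marker Mki67 still stood at 259 to 392 CPM in all 18 libraries of 6 h.

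Of 16 FoxO target genes, 12 were tested, and 5 rose and 0 fell in Ei, with a median of 0.75. In Mi 4 rose and 1 fell, and in IDE and IDM 5 rose and 0 fell. The shares of all genes called were 28.1% in Ei, 23.1% in Mi, 22.5% in IDE and 20.7% in IDM. Cdkn1b is a known FoxO target, as Cdkn1a and Btg2 are known p53 targets. Txnip, which binds thioredoxin and restrains glucose uptake, averaged 392 CPM in Ei and 109 CPM in ENR (1.85, adjusted p = 6.54e-12). Ccng2, an atypical cyclin that is high in resting cells, averaged 80.9 CPM in Ei and 26.8 CPM in ENR (1.59, adjusted p = 1.94e-08). Of the 20 p53 target genes other than the members, 15 were tested, and 3 rose and 1 fell in Ei, 1 rose and 2 fell in Mi, 0 rose and 2 fell in IDE, and 0 rose and 1 fell in IDM. Those shares lie near or below the share of all genes called. Both lists were chosen with earlier results of these data known, and the part of FoxO or p53 in the members' changes was not tested.

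Partners and regulators of the members were called in part. Of the CCR4-NOT subunits, 12 of 13 were tested, and 0 rose and 2 fell in Ei, 0 rose and 1 fell in Mi, 1 rose in IDE and 0 were called in IDM. The SCF-Skp2 ubiquitin ligase degrades Cdkn1b protein, and 3 of its 6 subunits fell in Ei, Skp2 among them at 21.7 CPM in Ei and 39.7 CPM in ENR (adjusted p = 0.0212). Of the pocket proteins and DREAM subunits, which repress cell cycle genes in resting cells, 9 of 12 were tested and 4 fell in Ei. Of 7 further BTG and Cdk inhibitor genes, 4 were tested, and 0 were called in Ei and 2 rose each in Mi, IDE and IDM, with Cdkn2c (p18) at 44.4 CPM in IDE and 24.4 CPM in ID (adjusted p = 0.0135). Paneth cell markers moved with these changes: 10 of 10 tested rose in Ei, and their summed level was 5169 to 6991 CPM in Ei, 4204 to 4788 CPM in Mi and 2622 to 3543 CPM in ENR. In the other medium they summed to 3546 to 4748 CPM in IDE and 4278 to 6557 CPM in IDM, against 3449 to 3637 CPM in ID, where IDE and ID overlap. Goblet cell markers did not overlap in any of the 4 comparisons, at 2656 to 3325 CPM in Ei and 2103 to 2377 CPM in Mi, against 1618 to 1784 CPM in ENR, and 2181 to 2820 CPM in IDE and 2537 to 2623 CPM in IDM, against 1645 to 1901 CPM in ID. Of 9 goblet markers 6 rose in Ei, 5 in Mi, 2 in IDE and 4 in IDM, and 1 fell in each. The part of cell type makeup in the members' changes was not tested.

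At 96 h Btg2 was called higher and Cdkn1a lower under EGFR and under Mek inhibition in the standard medium. In Mi lower Cdkn2b and Tob1 and higher Trp53inp1 passed too. Of these 3, Cdkn2b was called different between Mi and Ei, while Tob1 (0.03 ± 0.33, adjusted p = 0.994) and Trp53inp1 (-0.04 ± 0.42, adjusted p = 0.993) were not. By the same test over 8135 genes, 2 of 9 members were called in Ei, a share near the 18.4% of all genes. In Mi 5 of 9 were called, beside 23.3%. Btg2 had 240.2, 167 and 183 CPM in Ei and 149, 153 and 162 CPM in Mi, against 91.1, 68.9 and 82.5 CPM in ENR. Both inhibited groups lay wholly above ENR, by 1.33 ± 0.20 in Ei (adjusted p = 6.3e-06) and 0.93 ± 0.18 in Mi (adjusted p = 0.000293).

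Cdkn1a had 317, 242 and 291 CPM in Ei and 275, 226 and 195 CPM in Mi, against 622, 575 and 737 CPM in ENR. The groups were far apart, and the fall was 2.24-fold in Ei (adjusted p = 3.37e-05) and 2.78-fold in Mi (adjusted p = 2.23e-07). Trp53inp1 had 30.9, 18.6 and 32.9 CPM in Ei and 29.1, 20.1 and 34.2 CPM in Mi, against 9.25, 16.2 and 12.1 CPM in ENR. All inhibited libraries were above all ENR libraries, by margins that were small beside the spread, with changes of 1.198 ± 0.44 in Ei (adjusted p = 0.0532) and 1.15 ± 0.36 in Mi (adjusted p = 0.0174). In Ei it passed without ENR replicate 2 (adjusted p = 0.0479) and with only the ENR and Ei libraries fitted (adjusted p = 0.0302), and in Mi it was lost without ENR replicate 1 or 3 or Mi replicate 1 or 3 (adjusted p 0.0545 to 0.102) and with DESeq2 (adjusted p = 0.0892).

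Cdkn2b separated the inhibitors at 96 h. It had 20.6, 26.3 and 13.1 CPM in Mi, against 54.9, 80.6 and 47.0 CPM in Ei and 59.8, 38.7 and 59.4 CPM in ENR. The Mi libraries were the lowest and did not overlap either of the other groups, at -1.41 ± 0.29 against ENR (adjusted p = 0.000492) and -1.55 ± 0.35 against Ei (adjusted p = 0.0167). It was the 1 member of 9 called in Mi against Ei, beside 1.08% of all genes. Against ENR the call was lost with libraries thinned to the smallest total (-0.90, adjusted p = 0.366). The Ei values rest on 32, 13 and 10 counts. The call against Ei was lost without Ei replicate 1 or 2 or Mi replicate 1 or 3 (adjusted p 0.0516 to 0.12), while its log2 change stayed between -1.64 and -1.32 without these libraries. It was also lost after thinning (adjusted p = 0.417) and with only the groups compared in the fit (adjusted p = 0.0577).

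Tob1 had 53.2, 74.4 and 47.0 CPM in Ei and 30.3, 77.2 and 67.1 CPM in Mi, against 116, 101 and 80.2 CPM in ENR. All inhibited libraries were below all ENR libraries, and the change was -0.82 ± 0.30 in Ei (adjusted p = 0.0592) and -0.78 ± 0.25 in Mi (adjusted p = 0.0227). The call in Mi was lost without ENR replicate 1 or 2 or Mi replicate 1 (adjusted p 0.0554 to 0.203), with DESeq2 (adjusted p = 0.0672) and after thinning (adjusted p = 0.49), and the change in Ei passed without ENR replicate 3 (adjusted p = 0.0423) or Ei replicate 2 (adjusted p = 0.045). Btg1 (0.25 ± 0.19 in Ei and 0.32 ± 0.17 in Mi) and Cdkn1b (-0.32 ± 0.22 in Ei and -0.30 ± 0.20 in Mi), called at 6 h, did not pass. Cdkn1c, at 0 to 10.3 CPM in Ei, Mi and ENR, and Tob2, at 47.0 to 105 CPM, did not pass either.

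**Figure D3:**
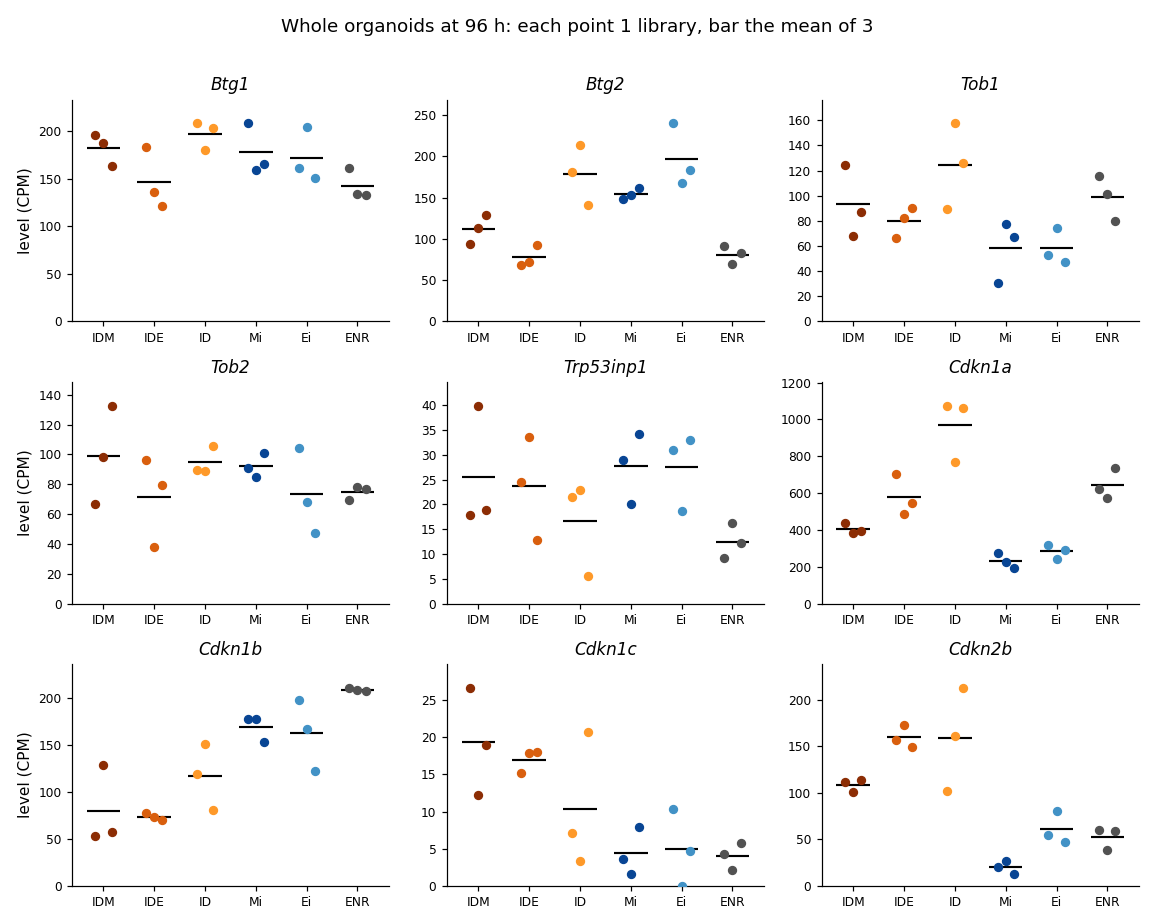
Levels of the 9 members in whole organoids after 96 h, in CPM on the vertical axis of each panel, for the 6 conditions; points are libraries and bars are means of 3. Cdkn1a ranges from 195 CPM in a Mi library to 1075 CPM in an ID library, and Btg2 is low in IDE and ENR and high in ID, Ei and Mi.

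After 96 h, Cdkn2b, Btg2, Cdkn1a and Btg1 were higher and Cdkn1b was lower in ID than in ENR. These are 5 of 9 members, beside 38.1% of all genes called in ID against ENR. Cdkn2b had 102, 161 and 213 CPM in ID, against 59.8, 38.7 and 59.4 CPM in ENR. The ID libraries were all higher and widely spread, at 1.58 ± 0.23 (adjusted p = 2.34e-06). Cdkn1a had 1075, 769 and 1064 CPM in ID, against 622, 575 and 737 CPM in ENR, again without overlap (0.59 ± 0.17, adjusted p = 0.00774).

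Btg2 had 181, 213 and 141 CPM in ID, against 91.1, 68.9 and 82.5 CPM in ENR, and each ID library exceeded each ENR library (1.123 ± 0.19, adjusted p = 2.14e-05). Cdkn1b had 118, 151 and 80.97 CPM in ID, against 211, 208 and 208 CPM in ENR, where the 3 libraries were nearly equal and all higher (-0.87 ± 0.22, adjusted p = 0.00218). Btg1 differed least, at 0.48 ± 0.18 (adjusted p = 0.0337), and its call was lost without ENR replicate 2 or 3 or ID replicate 1 or 3 (adjusted p 0.102 to 0.119), without the low-count filter (adjusted p = 0.185) and after thinning (adjusted p = 0.321). That of Cdkn1a was lost without ENR replicate 2 (adjusted p = 0.0529), and Cdkn1c, at 1.41 ± 0.60 (adjusted p = 0.0615), passed without ID replicate 2 (adjusted p = 0.0377).

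Under Wnt and Notch inhibition, Btg2 and Cdkn1a were called lower after 96 h with an added EGFR or Mek inhibitor. The Btg2 call in IDM lay near the threshold. In IDE against ID 2 of 9 members were called, a share near the 23.8% of all genes. For IDM against ID it was 2 of 9 beside 13.5%. Btg2 had 68.1, 72.3 and 92.7 CPM in IDE and 93.3, 114 and 129 CPM in IDM, against 181, 213 and 141 CPM in ID. The ID libraries were the highest throughout, and the change was -1.204 ± 0.21 in IDE (adjusted p = 6.29e-05) and -0.65 ± 0.22 in IDM (adjusted p = 0.0467). The call in IDM was lost under 11 of 12 alternatives, among them leaving out ID replicate 1 or 2 or any 1 IDM replicate (adjusted p 0.0601 to 0.166) the DESeq2 fit (adjusted p = 0.0711) and thinning (adjusted p = 0.264).

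Cdkn1a had 704, 487 and 543 CPM in IDE and 439.9, 384 and 394 CPM in IDM, against 1075, 769 and 1064 CPM in ID. No library overlapped between ID and either inhibited group, at -0.75 ± 0.18 (adjusted p = 0.0022) in IDE and -1.26 ± 0.19 (adjusted p = 1.09e-05) in IDM. The high Cdkn2b of ID was not called different in IDE, at 157, 173 and 149 CPM in IDE (change 0.03 ± 0.23, interval -0.42 to 0.47). In IDM it was 111, 101 and 114 CPM (change -0.54 ± 0.26, adjusted p = 0.173), which passed without ID replicate 1 (-0.81, adjusted p = 0.0403). Cdkn1b, at 77.6, 73.3 and 69.5 CPM in IDE and 53.3, 129 and 56.9 CPM in IDM, against 118, 151 and 80.97 CPM in ID, missed the threshold in both (adjusted p = 0.0669 in IDE and 0.304 in IDM). It passed in IDE without ID replicate 3 (adjusted p = 0.0238) and in IDM without IDM replicate 2 (adjusted p = 0.0371). In IDE against ID 3 further members passed once 1 library was left out: Btg1 without IDE replicate 1 (adjusted p = 0.028), Tob2 without IDE replicate 1 (adjusted p = 0.0483) and Tob1 without ID replicate 1 (adjusted p = 0.0481), all lower in IDE.

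In IDM against IDE 0 of 9 members were called at 96 h, beside 4.7% of all genes, and 0 by DESeq2. In edgeR 3 had an unadjusted p under 0.05, as did 1676 of the 8135 genes tested. The 3 were Btg2 at 0.56 ± 0.23, Cdkn1a at -0.51 ± 0.19 and Cdkn2b at -0.57 ± 0.25. All IDM libraries were above the IDE libraries for Btg2, and below them for Cdkn1a and Cdkn2b. The number of all genes that separate so was not counted.

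The opposite directions of Btg2 in the 2 media were tested as a difference of responses. The EGFR inhibitor response of Btg2 was lower in ID than in ENR (log2 difference -2.54 ± 0.29, adjusted p = 9.23e-08), and so was the Mek inhibitor response (-1.58 ± 0.29, adjusted p = 0.00041). With libraries thinned to the smallest total, these differences of Btg2 were -3.18 for the EGFR inhibitor and -2.29 for the Mek inhibitor, and its change in Mi against ENR was 1.73. Btg2 was the 1 member of 9 called in each, beside 14.1% of all genes for the EGFR inhibitor and 5.8% for the Mek inhibitor. Without IDE replicate 1 the EGFR inhibitor response of Btg1 also differed, at -0.86 (adjusted p = 0.0358), against -0.68 ± 0.27 with it (adjusted p = 0.092). For Cdkn1a, which fell under both inhibitors in both media, the difference was 0.41 ± 0.26 for the EGFR inhibitor (interval -0.10 to 0.92) and 0.21 ± 0.26 for the Mek inhibitor (interval -0.29 to 0.72).

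Cell type markers and cycling genes differed strongly between the groups at 96 h. Summed Paneth cell markers reached 54000 to 74500 CPM in Ei and 37900 to 41900 CPM in Mi, against 3784 to 4456 CPM in ENR, and 10 of 10 tested rose in both. They summed to 5954 to 10150 CPM in IDE and 8804 to 11080 CPM in IDM, against 7323 to 12140 CPM in ID. Tuft cell markers summed to 142.5 to 192.1 CPM in Ei and 94.2 to 131.5 CPM in Mi, against 24.6 to 36.3 CPM in ENR, with 0 to 2 of 10 at 0 counts, and to 121 to 134.7 CPM in IDE and 288 to 356 CPM in IDM, against 29.6 to 86.2 CPM in ID. Goblet cell markers summed to 10900 to 16500 CPM in IDE and 7838 to 8567 CPM in IDM, against 24860 to 43340 CPM in ID, and to 24860 to 43340 CPM in ID, 5231 to 6980 CPM in Ei and 3116 to 3762 CPM in Mi, against 1685 to 2009 CPM in ENR. Enterocyte markers summed to 18940 to 23240 CPM in ID, against 2891 to 3008 CPM in ENR. Enteroendocrine cell markers summed to 7223 to 9721 CPM in IDE and 12950 to 14100 CPM in IDM, against 3785 to 5827 CPM in ID, and to 3785 to 5827 CPM in ID, 3464 to 4259 CPM in Ei and 2268 to 2657 CPM in Mi, against 431 to 592 CPM in ENR. None of these goblet, enterocyte and enteroendocrine sums overlapped between the groups set against each other. Mki67 was 82.4 to 105 CPM in Ei, 94.2 to 125.9 CPM in Mi and 213 to 306 CPM in ENR, and 0 to 7.92 CPM in IDE and 0 to 30.7 CPM in IDM, against 42.7 to 80.8 CPM in ID. The part of these shifts in the members' changes was not tested.

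The cyclins and kinases fell at 96 h in every comparison with an inhibitor, 4 of 7 tested in Ei, in Mi and in IDM and 5 of 7 in IDE, with 6 of 7 lower in ID against ENR. Ccnd2 averaged 64.6 CPM in IDE and 674 CPM in ID (log2 change -3.37, adjusted p = 6.84e-12). FoxO targets, 11 of 16 tested, split by medium, a split that was not itself tested: 1 rose and 1 fell in Ei and 3 rose and 1 fell in Mi, whereas 1 rose and 4 fell in IDE and in IDM. Txnip averaged 560.3 CPM in Mi and 305 CPM in ENR (adjusted p = 0.000714), and 213 CPM in IDE and 403 CPM in ID (adjusted p = 0.00123). Klf4, a zinc finger factor of differentiating epithelium that inhibits proliferation, averaged 279 CPM in ID and 67.9 CPM in ENR (adjusted p = 3.34e-10), and 70.0 CPM in IDE. Of the p53 targets, 14 of 20 were tested, and 1 rose and 2 fell in Ei, 1 rose and 4 fell in Mi, 0 rose and 4 fell in ID, and 0 rose and 1 fell in IDE. Among the further Cdk inhibitor genes, Cdkn2c averaged 4.64 CPM in ID and 33.8 CPM in ENR (adjusted p = 0.000204), opposite to Cdkn2b of the same INK4 family.

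**Figure D4:**
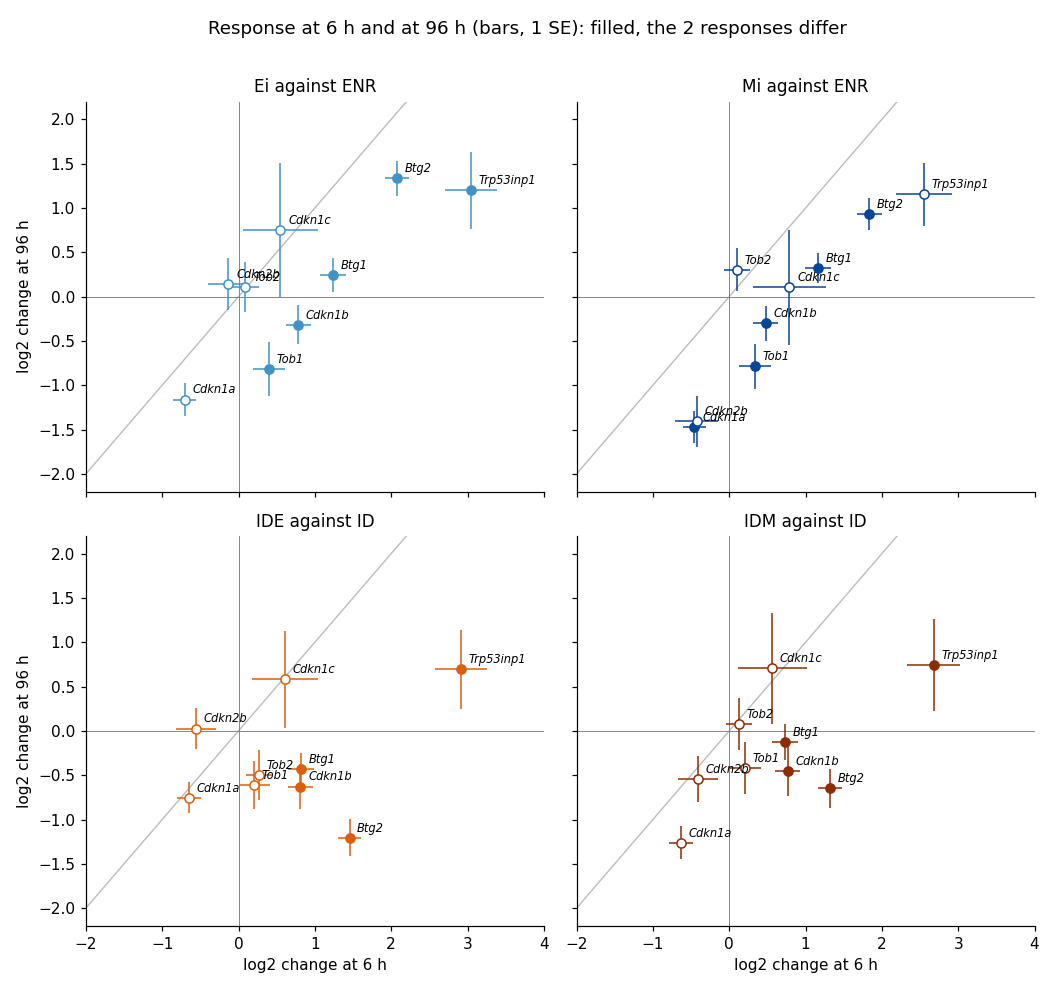
Log2 change of each member at 6 h (horizontal axis) and at 96 h (vertical axis) in the 4 inhibitor comparisons, 1 panel each; bars are 1 SE, filled points are members whose responses at the 2 times differed at an adjusted p under 0.05, and the diagonal marks equal responses. The filled points lie below the diagonal in all 4 panels.

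All called differences between times had the response at 96 h below that at 6 h. Times were compared only as responses to the inhibitor, each against its own control of the same time, in a fit over 10137 genes. For Ei against ENR 5 of 9 members differed, beside 12.2% of all genes, and for Mi against ENR 5 of 9, beside 13.1%. For IDE against ID 4 of 9 differed, beside 17.2%, and for IDM against ID 4 of 9, beside 6.97%. Of all genes called, the share with the higher response at 96 h was 44.7% for Ei and 42.6% for Mi. It was 44% for IDE and 33.1% for IDM. Among the members called, Btg1, Btg2 and Cdkn1b are in all 4, Trp53inp1 in all but Mi, Tob1 in Ei and Mi, and Cdkn1a in Mi.

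Btg2 showed the widest gap under Wnt and Notch inhibition, with a log2 difference, response at 96 h minus that at 6 h, of -2.68 ± 0.25 (adjusted p = 4.73e-11) for IDE and -1.98 ± 0.26 (adjusted p = 3.2e-07) for IDM. In the standard medium the gap of Btg2 was -0.93 ± 0.24 for Mi (adjusted p = 0.00556) and -0.76 ± 0.25 for Ei (adjusted p = 0.0315). The Ei value was lost without ENR 6 h replicate 2 or 3, Ei 6 h replicate 2 or 3, ENR 96 h replicate 1 or 3 or Ei 96 h replicate 2 or 3 (adjusted p 0.0528 to 0.0894), without the low-count filter (adjusted p = 0.0523) and with only the groups compared (adjusted p = 0.0552). For Btg1 the gap was -1.03 ± 0.26 for Ei, -0.86 ± 0.24 for Mi, -1.27 ± 0.25 for IDE and -0.88 ± 0.26 for IDM (adjusted p = 0.0042 for Ei, 0.0107 for Mi, 0.000249 for IDE and 0.0302 for IDM). The Mi value of Btg1 was lost without ENR 6 h replicate 2 (adjusted p = 0.0516). Its IDM value was lost without ID 6 h replicate 1 or 3, IDM 6 h replicate 1, ID 96 h replicate 1 or 3 or IDM 96 h replicate 2 or 3 (adjusted p 0.0521 to 0.106), and with only the groups compared (adjusted p = 0.0502).

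Cdkn1b, higher with the inhibitor at 6 h and lower in mean at 96 h, had gaps of -1.119 ± 0.28 for Ei, -0.80 ± 0.27 for Mi, -1.46 ± 0.31 for IDE and -1.22 ± 0.33 for IDM (adjusted p 0.000591 to 0.0352). The Mi value of Cdkn1b was lost without ENR 6 h replicate 2 or 3, Mi 6 h replicate 1 or 2, ENR 96 h replicate 1 or 3 or Mi 96 h replicate 3 (adjusted p 0.0515 to 0.103), and its IDM value without ID 96 h replicate 2 or IDM 96 h replicate 1 or 3 (adjusted p 0.0505 to 0.0666). Without IDM 96 h replicate 2 the IDM value of Cdkn1b was -1.83. Trp53inp1 responded less at 96 h, with gaps of -1.85 ± 0.56 for Ei (adjusted p = 0.0192), -2.22 ± 0.59 for IDE (adjusted p = 0.00601) and -1.93 ± 0.63 for IDM (adjusted p = 0.0494). The IDM value sat at the threshold and was lost under 12 alternatives, leaving out any ID 6 h library, IDM 6 h replicate 2 or 3, ID 96 h replicate 1 or 2 or IDM 96 h replicate 1 or 3 among them (adjusted p 0.0541 to 0.222). The Ei value was lost without ENR 6 h replicate 1 or ENR 96 h replicate 2 (adjusted p 0.0547 to 0.0607), and the IDE value without ID 96 h replicate 1 (adjusted p = 0.0847).

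Tob1 had gaps of -1.24 ± 0.38 for Ei (adjusted p = 0.0216) and -1.15 ± 0.34 for Mi (adjusted p = 0.0167), although it passed at 6 h in neither. They were lost without ENR 96 h replicate 1 (adjusted p = 0.056 for Ei and 0.0518 for Mi), without Ei 6 h replicate 2 or Ei 96 h replicate 1 (adjusted p 0.0908 to 0.139) and without Mi 96 h replicate 1 (adjusted p = 0.0915). Cdkn1a, lower with the inhibitor at both times, had a gap of -1.04 ± 0.24 for Mi (adjusted p = 0.00172), and for IDM one of -0.65 ± 0.25 (adjusted p = 0.102) that passed without ID 96 h replicate 2 (adjusted p = 0.0454). Tob2, with -0.81 ± 0.33 for IDE, passed without IDE 96 h replicate 1 (adjusted p = 0.0271). Cdkn1c and Cdkn2b had no called difference between times in any of the 4.

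In sorted Lgr5+ cells, EGFR inhibition raised Btg2, the 1 member of 9 called. This stood beside 4.94% of the 10325 genes tested in the sorted set, for the mean of the responses of both lines. That share is 510 genes, and 233 to 295 genes were called without any 1 of the 8 libraries. Btg2 had 304 and 226 CPM in Lgr5-GFP cells in Ei, against 64.4 and 87.8 CPM in ENR. It had 140.1 and 136 CPM in Lgr5-DTR cells in Ei, against 36.2 and 39.7 CPM in ENR. In both lines each Ei library was above each ENR library, and the joint rise was 3.55-fold (1.83 ± 0.23, adjusted p = 0.000129). Immediate early and dissociation genes, to which Btg2 is related by its own rapid induction, moved beside it: 6 of 14 rose and 1 fell, with a median of 1.04 against 0.03 over all genes. Enterocyte markers rose for 5 of 12 and tuft cell markers for 5 of 9 tested, and 3 of 9 goblet markers fell. Goblet markers summed to 351 to 455 CPM in Lgr5-GFP Ei, against 1028 to 1663 CPM in ENR, and to 424 to 654 CPM in Lgr5-DTR Ei, against 1704 to 2035 CPM in ENR. Paneth cell markers summed to 8178 to 8876 CPM in Lgr5-GFP Ei, against 1211 to 2247 CPM in ENR, but to 2709 to 3277 CPM in Lgr5-DTR Ei, against 2783 to 3773 CPM in ENR, and 0 of 10 were called jointly. The part of cell handling and of other cell types in the value of Btg2 was not tested.

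Trp53inp1 had 4.62 and 9.48 CPM in Lgr5-GFP cells in Ei, against 1.01 and 0 CPM in ENR, and 7.11 and 4.91 CPM in Lgr5-DTR cells in Ei, against 1.57 and 1.81 CPM in ENR. The Ei libraries were the higher ones in both lines, on 40 counts in Ei and 7 counts in ENR, a ratio of 5.28 per library size (95% interval 2.34 to 13.98, for counting error only). The fitted change missed the threshold (adjusted p = 0.0743), and passed with only the groups compared in the fit (adjusted p = 0.0252). Cdkn1a in Lgr5+ cells had 69.3 and 44.5 CPM in Lgr5-GFP Ei, against 54.3 and 37.5 CPM in ENR, and 54.8 and 34.3 CPM in Lgr5-DTR Ei, against 11.01 and 19.4 CPM in ENR. The Lgr5-GFP libraries overlapped between media and the Lgr5-DTR libraries did not, at 0.92 ± 0.26 jointly (adjusted p = 0.0545, and 0.0163 with DESeq2). Cdkn1b (-0.57 ± 0.34) and Btg1 (0.37 ± 0.20) did not pass.

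The Lgr5-DTR response was also set against the Lgr5-GFP response, and 0 of 9 members differed, beside 0% of all genes, with 0 genes called by DESeq2. In edgeR 262 genes had an unadjusted p under 0.05, 2 members among them, Btg1 at 1.01 ± 0.39 and Cdkn1a at 1.18 ± 0.53. Btg1 had 197 and 219.7 CPM in Lgr5-DTR Ei, against 115 and 113 CPM in ENR, but 84.5 and 88.1 CPM in Lgr5-GFP Ei, against 90.5 and 99.1 CPM in ENR. Its Ei libraries were thus above ENR in one line and below it in the other.

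**Figure D5:**
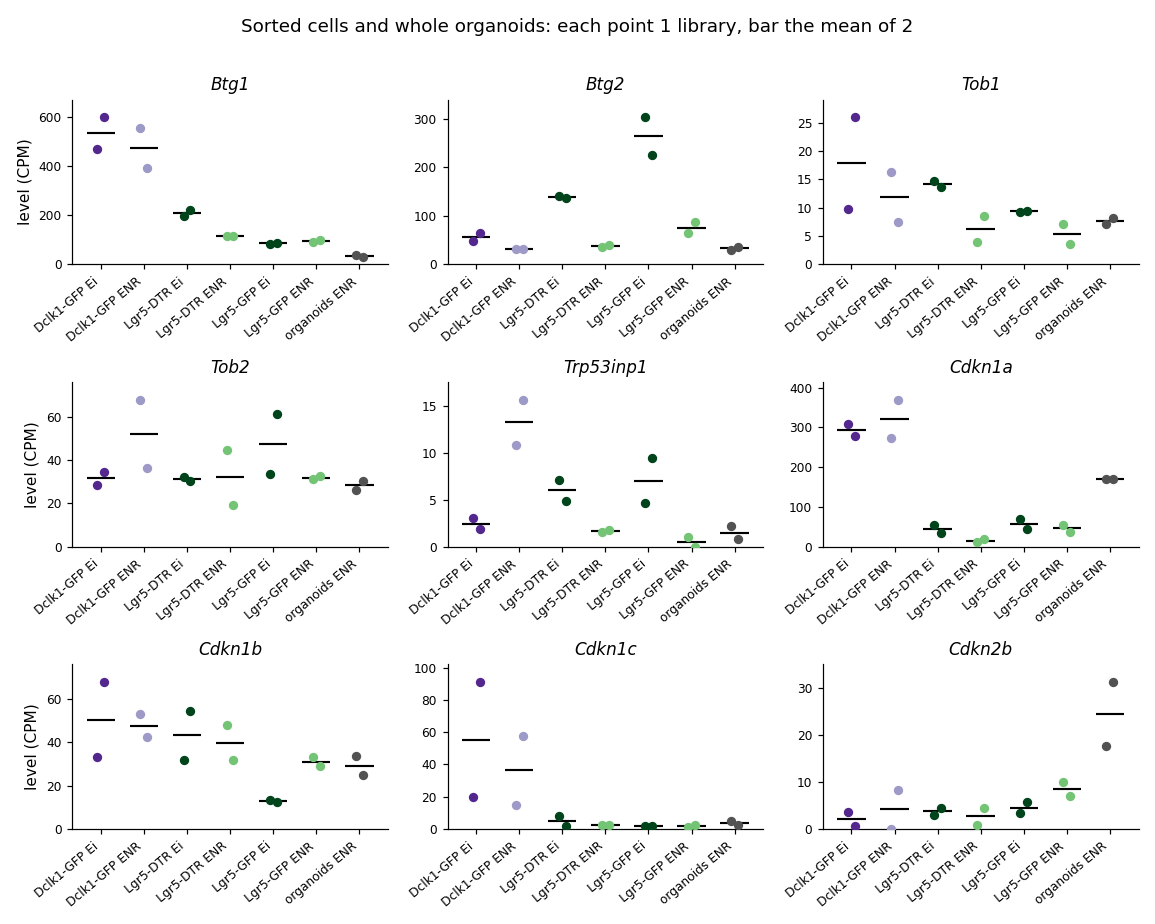
Levels of the 9 members in sorted Dclk1+ and Lgr5+ cells in Ei and ENR and in whole organoids in ENR, in CPM on the vertical axis of each panel; points are libraries and bars are means of 2. Btg1 is at 392 to 598 CPM in the 4 Dclk1+ libraries and at 31.3 to 220 CPM elsewhere, and Btg2 is highest in the Lgr5+ Ei libraries.

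In Dclk1+ cells 0 of 9 members were called for Ei against ENR, beside 3.34% of all genes, and 0 by DESeq2. The 345 genes behind that share ran from 310 to 703 with 1 library left out and were most without either ENR library. In edgeR 2 of 9 had an unadjusted p under 0.05, a share near that of all genes, 2159 of 10325. Btg2 had 48.9 and 64.2 CPM in Ei, against 31.4 and 32.3 CPM in ENR (adjusted p = 0.17), and Trp53inp1 3.06 and 1.85 CPM in Ei, against 10.9 and 15.7 CPM in ENR (adjusted p = 0.184). Neither pair of groups overlapped, and how many of all genes separate likewise between 2 and 2 libraries was not counted. The counts of Trp53inp1 were 8 in Ei and 27 in ENR, a ratio of 0.177 (interval 0.0694 to 0.400, for counting error only). Set against the response of Lgr5+ cells, 0 of 9 members differed by edgeR, beside 1.26% of all genes, or 130 genes, which ran from 31 to 418 with 1 library left out. Unadjusted p was under 0.05 for 1737 of the 10325 genes and for 3 members. These were Btg2 (interval -1.80 to -0.20), Cdkn1a (-1.06 ± 0.43) and Trp53inp1 (-5.21 ± 1.35, adjusted p = 0.0639). DESeq2 called 1, Trp53inp1 (adjusted p = 0.0202), which in edgeR passed without Dclk1+ ENR replicate 1 (adjusted p = 0.0474).

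In ENR, Dclk1+ cells, which carry the tuft cell markers, had higher Btg1, Cdkn1a, Cdkn1c and Trp53inp1 than Lgr5+ cells and whole organoids. Trp53inp1 was not high in Dclk1+ cells in Ei. It averaged 2.45 CPM there, against 7.05 CPM in Lgr5-GFP and 6.01 CPM in Lgr5-DTR cells in Ei. In Dclk1+ against Lgr5+ cells, both in ENR, 4 of 9 members were higher and 0 lower. This share lay near the 38.3% of all genes called either way, of which 49.4% were higher. Against whole organoids 4 of 9 were higher, beside 30.3%, or 3130 genes, which ran from 1769 to 3082 with 1 library left out and was lowest without either whole-organoid library. Btg1 had 554 and 392 CPM in Dclk1+ cells, against 115 and 113 CPM in Lgr5-DTR cells, 90.5 and 99.1 CPM in Lgr5-GFP cells and 36.8 and 31.3 CPM in whole organoids. The order was without overlap, and Btg1 was 4.54-fold higher than in Lgr5+ cells (adjusted p = 1.35e-06) and 13.8-fold higher than in whole organoids (adjusted p = 6.96e-08).

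Cdkn1a had 274 and 370.2 CPM in Dclk1+ cells, against 11.01 and 19.4 CPM in Lgr5-DTR cells, 54.3 and 37.5 CPM in Lgr5-GFP cells and 169 and 169 CPM in whole organoids. It was 12.1-fold higher than in Lgr5+ cells (adjusted p = 8.9e-08). The difference from whole organoids, 0.93 ± 0.34 (adjusted p = 0.0446), was lost without Dclk1+ ENR replicate 2 or either whole-organoid library (adjusted p 0.183 to 0.208), without the low-count filter (adjusted p = 0.0786), with only the groups compared (adjusted p = 0.0632) and, as an alternative added after the data were seen, with Ptma left out of the counts (adjusted p = 0.052). Cdkn1c had 15.0 and 58.0 CPM in Dclk1+ cells, against 2.36 and 2.26 CPM in Lgr5-DTR cells, 1.01 and 2.12 CPM in Lgr5-GFP cells and 4.90 and 2.43 CPM in whole organoids. The Dclk1+ replicates themselves differed widely, in ENR as in Ei (19.6 and 91.4 CPM), yet all 4 exceeded every other library of the set. The ratio of summed counts to Lgr5+ cells was 20.5 (81 and 12 counts, interval 11.1 to 41.3). That interval covers counting error only and not the spread between libraries. The fitted log2 change was 4.21 ± 0.77 (adjusted p = 0.00044), and it became 4.84 without Dclk1+ ENR replicate 1 and 2.88 without replicate 2. The call of Cdkn1c against whole organoids (adjusted p = 0.00721) was lost without Dclk1+ ENR replicate 2 (log2 change 1.98, adjusted p = 0.136, against 3.31 ± 0.85 with it, and 3.94 without replicate 1) or whole-organoid replicate 2 (adjusted p = 0.086).

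Trp53inp1 had 27 counts in the Dclk1+ ENR libraries, against 7 in the Lgr5+ ENR libraries and 12 in whole organoids. The ratios of summed counts were 11.7 (interval 4.98 to 31.9) and 9.03 (interval 4.42 to 19.6), with intervals for counting error only. The fitted log2 changes were 3.84 ± 0.94 (adjusted p = 0.0042) and 3.09 ± 1.00 (adjusted p = 0.0266). The log2 change of Trp53inp1 against Lgr5+ cells was 5.27 without Lgr5-GFP ENR replicate 1, against 3.84 ± 0.94 with it. The difference from whole organoids was lost without Dclk1+ ENR replicate 2 or either whole-organoid library (adjusted p 0.11 to 0.274) or without the low-count filter (adjusted p = 0.0514), and was 3.90 without whole-organoid replicate 1, against 3.09 ± 1.00 with it. Cdkn2b had 0 and 8.28 CPM in Dclk1+ cells, against 17.6 and 31.3 CPM in whole organoids (adjusted p = 0.0807). It passed without Dclk1+ ENR replicate 2, which leaves only a library at 0 counts (adjusted p = 0.0113). The 5 members not called against Lgr5+ cells had log2 differences from -0.76 ± 0.31 for Btg2, the closest to the threshold (adjusted p = 0.0589), to 0.998 ± 0.66 for Tob1.

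Lgr5+ cells against whole organoids, both in ENR, had 2 of 9 members called, beside 12% of all genes, or 1239 genes, which ran from 432 to 859 with 1 library left out. Cdkn1a was 6.33-fold lower in Lgr5+ cells (-2.66 ± 0.29, adjusted p = 1.55e-05), with the 4 Lgr5+ libraries between 11.01 and 54.3 CPM and both whole-organoid libraries at 169 CPM. Btg1 was 3.05-fold higher in Lgr5+ cells (adjusted p = 0.000476), and each of the 4 libraries exceeded both whole-organoid libraries. Enterocyte markers were lower in Lgr5+ cells for 12 of 12, and 8 of 14 immediate early and dissociation genes were higher, with a median of 2.46 against -0.10 over all genes. The part of these genes and of the separate count lists in the 2 calls was not tested.

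The cell cycle genes around the members also set the sorted cells apart. In Dclk1+ against Lgr5+ cells, 0 of 10 tested cyclins and kinases were higher and 8 lower, with a median of -2.56, and of the 18 S phase genes 0 were higher and 16 lower. Cdkn2c was opposite to Cdkn1a and Cdkn1c, at 5.21 CPM in Dclk1+ cells and 107 CPM in Lgr5+ cells (adjusted p = 6.06e-05). Tuft cell markers were higher for 9 of 9 tested and summed to 6146 to 6157 CPM in Dclk1+ ENR cells, against 40.4 to 124 CPM in Lgr5+ ENR cells and 15.7 to 17.3 CPM in whole organoids. Paneth cell markers summed to 200.5 and 4255 CPM in the 2 Dclk1+ ENR libraries, and the part of other cell types in the members' values was not tested. Of the 7 fibroblast markers none was counted highly enough to be tested.

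Across the 36 whole-organoid libraries of both times, each gene centred on its mean at that time, the members resembled different genes. Candidates were 5861 genes with a mean of at least 20 CPM at both times, and likeness is Pearson's r of log2 CPM, as a description over libraries that share conditions and sets. Btg2 was most like Irf1 (0.845), Txnip (0.833) and Sectm1b (0.831), and Btg1 most like Oat (0.826), Rmnd5a (0.808) and Clmn (0.796). Cdkn1a was most like Ldha (0.915), Egln3 (0.907) and Cyp51 (0.906), the first of which codes for a subunit of lactate dehydrogenase and the second for a prolyl hydroxylase of the hypoxia pathway. Cdkn1b had Ehbp1 (0.906), Ckap2 (0.827) and Bcl11a (0.82) nearest to it, Cdkn2b had Nat8 (0.899), Apoa1 (0.876) and Gm3776 (0.874), and Trp53inp1 had Serinc3 (0.882), Hbp1 (0.863) and Pdcd4 (0.844). The nearest gene was Ttc38 for Cdkn1c (0.805) and Ptprf for Tob2 (0.797). Some likenesses came mainly from 1 time. For Cdkn2b and Nat8, r was 0.349 at 6 h and 0.948 at 96 h, and for Cdkn2b and Apoa1 0.21 and 0.928. Cdkn1b and Ckap2 had 0.343 and 0.963, and Cdkn1c and Ttc38 0.418 and 0.866. The reverse held for Trp53inp1 and Pdcd4, at 0.968 at 6 h and 0.437 at 96 h.

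Pairs of members differed in how they ran together over the libraries. Btg1 and Btg2 had an r of 0.947 over the 18 libraries of 6 h and 0.425 over the 18 of 96 h, and Btg2 and Trp53inp1 one of 0.957 at 6 h and 0.25 at 96 h. Cdkn1a and Trp53inp1 were opposed at both times (-0.824 at 6 h and -0.542 at 96 h), and Cdkn1b and Cdkn1c at 96 h (-0.785) but not at 6 h (0.222). Over the 14 comparisons of 2 organoid groups, 7 at each time, Btg2 was called in 9, higher in 7 and lower in 2, and Cdkn1a in 9, higher in 1 and lower in 8. Btg1 was called higher in 5, Trp53inp1 higher in 5, Cdkn1b higher in 4 and lower in 1, Cdkn2b higher in 1 and lower in 2, and Tob1 lower in 1. Cdkn1c and Tob2 were called in none of the 14.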

How the data were processed

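The authors deposited raw read counts for each gene and bulk library, from CEL-seq, per the labels' protocols. BWA 0.6.2-r126 and the mouse build mm10 are named in the submitters' processing notes. The counting program, its annotation and any filter are not given in the sources used here. Rows absent from some of a set's files were taken as 0 (2153 rows at 6 h, 2989 at 96 h and 2961 in the sorted set), none of them a member. Such a row held at most 5 counts in 1 library at 6 h, 29 at 96 h and 220 in the sorted set. Those that passed the filter are part of the shares of all genes called. Spike-in rows were not present in the counts used. Replicate numbers in some sorted library names differ from those in the titles, which leaves the groups as they are. Tob2, Cdkn1a and Cdkn1c each overlap a gene on the opposite strand that has no row of its own, so reads of those could not be told apart unless the authors' counting used strand. Single-cell tables were not used here.

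Libraries of 6 h, libraries of 96 h and sorted libraries with their control organoids were each fitted alone, and both times were joined in 1 fit for differences of responses, with edgeR 4.0.16 in R 4.3.3: filterByExpr with a minimum count of 10, TMM scaling, the quasi-likelihood test and Benjamini-Hochberg adjustment over all genes tested, threshold 0.05. Intervals (95%) are the change ± 1.96 SE. Ratios of summed counts have exact binomial intervals that cover counting error only. The procedure was tested on simulated data. Alternatives were RLE scaling, no filter, the replicate number as a block, DESeq2 1.42.0, thinning to the smallest library (seed 11), fitting only the groups compared and leaving out each library. Leaving Ptma out of the sorted set was added after the data were seen. Replicate numbers did not pair the libraries, since same-numbered libraries had deviations correlated between -0.0947 and 0.158 over 46 pairs.

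The 9 members were described in every comparison, with Lgr5, Dclk1 and Mki67 as checks. Up to 4 genes with the smallest adjusted p were eligible from each list described, and for likeness the 3 genes of highest Pearson's r, computed from log2 CPM with a prior count of 2, among genes averaging at least 20 CPM. Members and lists were chosen with earlier results of these data known. Promoter windows were taken from RefSeq tables, in Python 3.11.15 with numpy 2.4.6 and scipy 1.17.1, and figures drawn with matplotlib 3.10.9. A gene that this rule on likeness names is not reported here.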

Additional observations from a re-analysis of the deposited data

Results flagged for a closer look

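A closer look is due where the response of a member to the same inhibitor differed between media or times by a test of the difference itself. All values are differences of log2 changes from edgeR's quasi-likelihood test.

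At 96 h the response of Btg2 to the EGFR inhibitor in ID differed from that in ENR by -2.5391, and its response to the Mek inhibitor by -1.5787. Both came with a rise of Btg2 in the standard medium and a fall under Wnt and Notch inhibition, and no other member was called there.

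The response at 96 h differed from that at 6 h for 5 members under Ei against ENR, by -1.0252 for Btg1, -0.76118 for Btg2, -1.1185 for Cdkn1b, -1.2395 for Tob1 and -1.8542 for Trp53inp1. Under Mi against ENR it differed by -0.8631 for Btg1, -0.9263 for Btg2, -1.0442 for Cdkn1a, -0.80239 for Cdkn1b and -1.1515 for Tob1. Under IDE against ID it differed by -1.2734 for Btg1, -2.6793 for Btg2, -1.4552 for Cdkn1b and -2.216 for Trp53inp1. Under IDM against ID it differed by -0.87525 for Btg1, -1.977 for Btg2, -1.2247 for Cdkn1b and -1.9282 for Trp53inp1. Of all genes, 12.2% differed for Ei, 13.1% for Mi, 17.2% for IDE and 6.97% for IDM. Of 17 alternatives, 12 lost the call of Trp53inp1 in IDM and 10 that of Btg2 in Ei. Another 8 lost that of Btg1 in IDM and 7 that of Cdkn1b in Mi, and some other calls were lost under fewer. All 18 differences between times have the same sign, and they repeat the same few genes over comparisons. Most of all genes called were lower at 96 h too. The higher ones were 44.7% for Ei, 42.6% for Mi, 44% for IDE and 33.1% for IDM. Ei and Mi share their ENR libraries, and IDE and IDM their ID libraries, so the comparisons within a medium repeat part of the same data. Btg1, Btg2 and Cdkn1b are in all 4, Trp53inp1 in 3, Tob1 in 2 and Cdkn1a in 1, while Cdkn2b, Cdkn1c and Tob2 are in none. Why responses differ between times was not tested, and time and library set cannot be told apart.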

How the results depend on the processing

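Of 3458 values of member changes under alternatives, 3320 kept their side of the threshold, 105 lost a call, 33 gained one and 0 turned a called change round, while some changes that were not called changed sign. Of 68 called changes, 46 held under every alternative run for them, among them Btg1, Btg2 and Trp53inp1 at 6 h under both inhibitors in both media, Btg2 and Cdkn1a at 96 h in Ei and Mi, the 2 medium differences of Btg2 at 96 h, and Btg2 in Lgr5+ cells. Counts of members called moved by over 1.5 times as follows, and the cause was not tested. In IDM against ID at 96 h the count was 1 in place of 2 under RLE scaling, no filter, DESeq2, thinning, only the groups compared and the replicate block. The pairing by replicate number changed the count of members by over 1.5 times in no other comparison. For Mi against ENR at 96 h, 3 were called with DESeq2 and 2 after thinning, in place of 5. Mi against Ei at 96 h gave 0 after thinning and 0 with only the groups compared, in place of 1. With only those groups fitted, Ei against ENR at 96 h gave 4 in place of 2, IDM responses between times 2 in place of 4, Lgr5+ cells against whole organoids 4 in place of 2, and Ei against ENR in Lgr5+ cells 3 in place of 1. The last gave 2 without the filter and 2 with DESeq2. The difference of Dclk1+ and Lgr5+ responses gave 1 without the filter and 1 with DESeq2, in place of 0.

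Leaving out 1 library at a time, the count ran from 3 to 4 for Mi against ENR at 6 h (5 with all) and 3 to 5 at 96 h (5), 0 to 1 for Mi against Ei at 96 h (1), 3 to 6 for ID against ENR (5), 2 to 4 for IDE against ID (2) and 1 to 2 for IDM against ID (2), all at 96 h, and 1 to 2 for the EGFR inhibitor response by medium at 96 h (1). Between times it ran from 3 to 5 for Ei (5), 3 to 5 for Mi (5) and 1 to 3 for IDM (4). In sorted cells it ran from 1 to 4 for Dclk1+ cells against whole organoids (4) and 0 to 1 for the Dclk1+ against Lgr5+ response (0). DESeq2 moved the share of higher calls over all genes by more than 10 points in IDM against IDE at 6 h, to 66.7% against 50%, and in the Mek inhibitor response by medium at 96 h, to 50.8% against 40.5%. No scaling moved the median of all genes by over 0.1 on the log2 scale. Depth limits Cdkn1c throughout, Trp53inp1 in sorted cells, and every member in the Ei, IDM and ID libraries of 96 h. These hold 158135 to 554681 counts in Ei, 231990 to 337789 in IDM and 322050 to 574340 in ID. Counts over all genes also moved by over 1.5 times. Over all alternatives, leaving out libraries included, they ran from 233 to 1431 for Ei against ENR in Lgr5+ cells (510), 21 to 781 in Dclk1+ cells (345), 31 to 484 for the difference of these responses (130) and 0 to 7 for that of the 2 Lgr5 lines (0). In ENR they ran from 432 to 2812 for Lgr5+ cells (1239) and 1769 to 3285 for Dclk1+ cells (3130) against whole organoids. At 96 h they ran from 618 to 1721 for Ei against ENR (1495), 571 to 2251 for Mi against ENR (1894), 52 to 125 for Mi against Ei (88), 1223 to 3628 for ID against ENR (3097), 785 to 1939 for IDE against ID (1939), 570 to 1204 for IDM against ID (1100), 105 to 530 for IDM against IDE (382), and 475 to 1213 (1149) and 181 to 551 (472) for the EGFR and Mek inhibitor responses by medium. At 6 h they ran from 5 to 56 for ID against ENR (21), 1 to 28 for Mi against Ei (9), 0 to 24 for IDM against IDE (2), and 0 to 5 (0) and 0 to 6 (0) for the EGFR and Mek inhibitor responses by medium.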
